A study of Mus musculus with 13 samples.

Results

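Hairpins of the imprinted Dlk1-Dio3 domain that lie near Meg3 or within Rian were followed in mouse hippocampus and prefrontal cortex (PFC). The members were chosen by hairpin name, and the hairpins usually grouped as antisense to Rtl1, such as mir-431, mir-127 and mir-136, formed a separate list. They comprised mmu-mir-770, mmu-mir-673, mmu-mir-493, mmu-mir-337, mmu-mir-540, mmu-mir-665, mmu-mir-341, mmu-mir-1188 and mmu-mir-370, which are 9 of the 903 hairpins listed in the small RNA libraries. Both arms of each were listed, giving 18 of 1514 pairs of a hairpin and a mature miRNA.

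Small RNA was sequenced in 13 libraries to compare TgR mice with their parent strain. In TgR mice a transgene with a short cytomegalovirus promoter makes human AChE-R, the soluble variant of acetylcholinesterase that stress induces, and FVB/N mice are the background strain without it. The groups were 3 FVB/N and 4 TgR PFC libraries and 3 FVB/N and 3 TgR hippocampus libraries, each library from its own mouse within a group. The labels give neither age nor sex for these mice, and do not say whether both regions came from the same mice. Total counts ranged from 8769851 in TgR PFC replicate 2 to 18385985 in TgR hippocampus replicate 1. Levels are given as CPM, the counts scaled by each library's total after that total was multiplied by a factor for differences in composition (TMM), which was 0.935 to 1.07 here. The smallest signal taken as different from 0 was 3 counts, or 0.167 to 0.323 CPM depending on the library, which allows for counting error and for no other.

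Imprinted genes are expressed from the chromosome of a single parent. In the Dlk1-Dio3 domain the protein-coding genes are read from the paternal chromosome, and the long noncoding RNAs Meg3, Rian and Mirg, together with a large group of miRNAs, from the maternal one. A miRNA hairpin is cut to a duplex with a 5p and a 3p arm, and the arm that is loaded into Argonaute recognises targets mainly through its seed, the stretch next to its 5′ end. Many miRNAs of this domain are abundant in brain.

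The mature sequences below belong to the miRNAs that passed a test or whose libraries did not overlap between groups in a comparison, and to the other arms of mmu-mir-370 and mmu-mir-770, which serve as the comparison within a hairpin. Sequences are those of RefSeq on GRCm38.p6, in which all 18 members were found, written 5′ to 3′ with the seed (bases 2 to 8) in capitals.
mmu-miR-370-3p: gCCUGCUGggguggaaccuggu
mmu-miR-370-5p: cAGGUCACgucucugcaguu
mmu-miR-770-3p: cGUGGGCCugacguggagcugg
mmu-miR-770-5p: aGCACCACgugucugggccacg
mmu-miR-540-3p: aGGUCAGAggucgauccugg
mmu-miR-673-3p: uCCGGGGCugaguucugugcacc

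The 18 members had 18 distinct seeds, so no seed group formed among them. Outside the members, mmu-miR-540-3p shared its seed with mmu-miR-6915-5p, mmu-miR-370-5p with mmu-miR-1193-3p and mmu-miR-673-5p with mmu-miR-6985-3p. The members were rich in G and C, with a median of 61.0% against 52.2% over 1679 mature mouse miRNAs, and 16 of 18 lay at or above the latter value.

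On GRCm38.p6 all 9 hairpins lay on the plus strand of chromosome 12. mmu-mir-770 (109563692 to 109563785) lay inside Meg3, in an exon of 1 annotated transcript and in introns of 3 others. mmu-mir-673 (109571990 to 109572080) began 260 bases after the end of Meg3, and mmu-mir-493 (109580233 to 109580315), mmu-mir-337 (109585789 to 109585885), mmu-mir-540 (109586080 to 109586146) and mmu-mir-665 (109586314 to 109586407) followed. None of these 5 fell in a GENCODE transcript, and the minus-strand Rtl1 of RefSeq (109564900 to 109604418) spans them, so on that annotation they too lie opposite Rtl1. mmu-mir-341 (109611500 to 109611595), mmu-mir-1188 (109611822 to 109611941) and mmu-mir-370 (109618258 to 109618336) lay in introns of 2 transcripts of Rian. The closest neighbours were mmu-mir-540 and mmu-mir-665, with 167 bases between them, and mmu-mir-337 and mmu-mir-540, with 194.

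Levels spread widely among the members although their hairpins are neighbours. mmu-miR-370-3p, from Rian, was the most abundant, with a mean of 1685 CPM over the 13 libraries, which put it 69th of the 1514 listed pairs. mmu-miR-337-5p followed at 482 CPM, mmu-miR-341-3p at 420 CPM and mmu-miR-770-3p at 146 CPM. In FVB/N hippocampi, however, mmu-miR-341-3p (mean 487 CPM) lay above mmu-miR-337-5p (456 CPM). Counts of different miRNAs also carry differences in how well each is captured, so the order given is one of read counts. The means of mmu-miR-770-5p (51.3 CPM), mmu-miR-540-3p (49.8 CPM), mmu-miR-673-5p (40.9 CPM) and mmu-miR-493-5p (39.3 CPM) lay close together, and their ranges over libraries overlapped. mmu-miR-370-5p had a mean of 29.1 CPM, mmu-miR-665-3p of 12.3 CPM and mmu-miR-673-3p of 11.1 CPM. A mean between 0.761 and 5.88 CPM was found for mmu-miR-540-5p, mmu-miR-493-3p, mmu-miR-337-3p, mmu-miR-341-5p and mmu-miR-1188-5p. The remaining arms were near the floor, mmu-miR-1188-3p with 0 to 5 counts and mmu-miR-665-5p with 0 to 3 counts per library. They did not pass the filter on low counts and were not tested, so 16 of the 18 members entered every comparison.

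**Figure D1:**
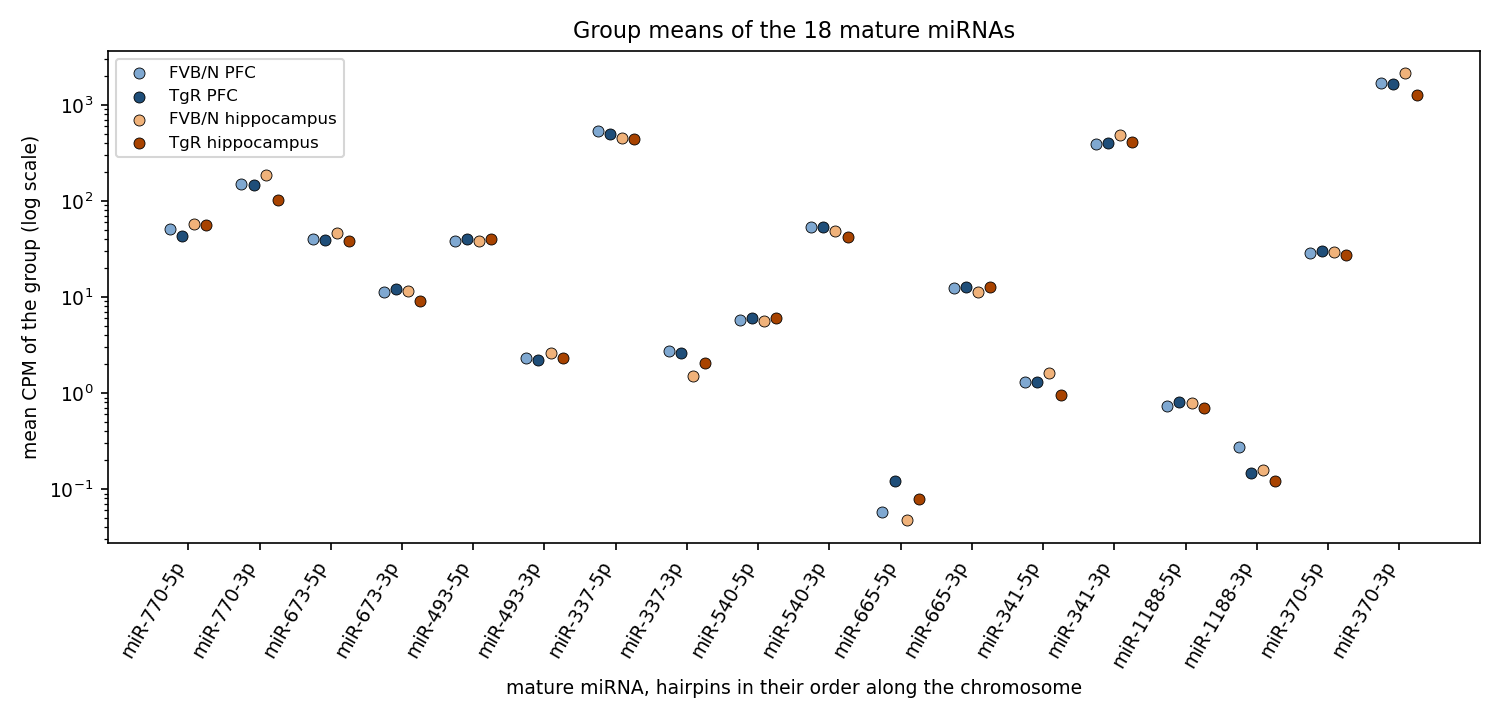
Mean CPM (vertical axis, log scale) of the 18 mature miRNAs in each of the 4 groups (colours), with hairpins in their order along the chromosome. mmu-miR-370-3p is highest in every group and mmu-miR-665-5p lowest, and for most members the 4 group means lie close to each other compared with the distance between members.

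Added up, the members took 2370 to 3896 CPM of a library. mmu-miR-370-3p alone made up 50.8% to 66.4% of that sum, the lowest share in TgR hippocampus replicate 2 and the highest in FVB/N hippocampus replicate 3. The 3 TgR hippocampi had sums of 2548, 2401 and 2453 CPM, and the 3 FVB/N hippocampi 3552, 3128 and 3896 CPM. These sums did not overlap, whereas those of the PFC did, at 2676, 3001 and 3335 CPM in FVB/N and 3077, 2370, 3020 and 3290 CPM in TgR mice.

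The first comparison asked whether the members differed between genotypes in the hippocampus. mmu-miR-370-3p was at 2101, 1738 and 2587 CPM in the FVB/N hippocampi and at 1360, 1220 and 1261 CPM in the TgR hippocampi. Every TgR library lay below every FVB/N library, and the FVB/N libraries were spread more widely. The group values were 2142 ± 426 CPM for FVB/N hippocampi, against 1280.3 ± 71.7 CPM for TgR (SD, n = 3 each), and mmu-miR-370-3p fell by 0.79 on the log2 scale, with a standard error (SE) of 0.17 and an adjusted p of 0.0449 (quasi-likelihood test of edgeR, adjusted over 726 pairs by the method of Benjamini and Hochberg). In bulk tissue, fewer cells that make a miRNA and less of it per cell cannot be told apart. The other arm of the hairpin, mmu-miR-370-5p, was at 29.1, 28.1 and 30.8 CPM in FVB/N and at 26.4, 30.6 and 24.9 CPM in TgR hippocampi. These groups overlapped, and the log2 fold change was -0.15 (SE 0.16, edgeR adjusted p = 0.636), or -0.24 without FVB/N hippocampus replicate 2 or TgR hippocampus replicate 2.

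mmu-miR-770-3p, whose hairpin lies inside Meg3, was at 180, 134 and 240 CPM in FVB/N and at 107, 96.1 and 107 CPM in TgR hippocampi. All 3 TgR values were below the FVB/N range. Its log2 fold change of -0.89 (SE 0.22) was the most negative among the members and did not pass the threshold (adjusted p = 0.0720, edgeR), and the adjusted p ran from 0.00125 to 0.180 over 13 alternative settings, with 3 of them past it, namely DESeq2, no filter and the fit without FVB/N hippocampus replicate 2. mmu-miR-770-5p was at 57.4, 53.5 and 63.4 CPM in FVB/N and at 62.0, 48.5 and 57.5 CPM in TgR hippocampi. The groups of this arm overlapped, with a log2 fold change of -0.099 (SE 0.17, edgeR adjusted p = 0.786) that single libraries moved between -0.22 (without FVB/N hippocampus replicate 2) and -0.0039 (without TgR hippocampus replicate 2).

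Of the 16 tested members 1 was called lower and none higher in the TgR hippocampus, against 1.52% of all 726 pairs called lower. In either direction 25 of the 726 pairs were called. Before adjustment 3 of the 16 members and 127 of the 726 pairs had a p under 0.05 in either direction (edgeR). DESeq2 called 2 members and 56 pairs. TgR libraries lay below all FVB/N libraries for 4 members, against 11.3% of all pairs. These were mmu-miR-370-3p, mmu-miR-770-3p, mmu-miR-540-3p and mmu-miR-673-3p, the last of which was chosen for description after its values were seen. mmu-miR-540-3p was at 46.4, 49.6 and 48.6 CPM in FVB/N and at 40.9, 43.2 and 41.5 CPM in TgR hippocampi, a narrow gap between tight groups, with a log2 fold change of -0.25 (SE 0.14, edgeR adjusted p = 0.373). mmu-miR-673-3p was at 12.02, 10.4 and 12.4 CPM in FVB/N and at 7.53, 10.1 and 9.77 CPM in TgR hippocampi, with a log2 fold change of -0.39 (SE 0.18, edgeR adjusted p = 0.288). Of the 16 members 12 had a negative log2 fold change, as they did under each of the other scalings, and 364 of all 726 pairs did. The median was -0.19 for the members and -0.0031 for all pairs. The members ranged from mmu-miR-770-3p up to mmu-miR-337-3p at 0.38 (SE 0.33, edgeR adjusted p = 0.548), a miRNA with 11 to 40 counts in these libraries. This upper value was 0.10 without FVB/N hippocampus replicate 3, 0.13 without TgR hippocampus replicate 2 and 0.60 without FVB/N hippocampus replicate 2.

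The call of mmu-miR-370-3p depended on single libraries, among other settings. Without FVB/N hippocampus replicate 2 it was past the threshold, at a log2 fold change of -0.99 (edgeR adjusted p = 0.0260). It was lost without FVB/N replicate 1 (adjusted p = 0.0697), FVB/N replicate 3 (0.101), TgR replicate 1 (0.0619), TgR replicate 2 (0.0877) or TgR replicate 3 (0.113, all edgeR), in a range of 0.000518 to 0.113 over 13 alternatives. The log2 fold change lay between -0.99 and -0.63 in all 13.

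**Figure D2:**
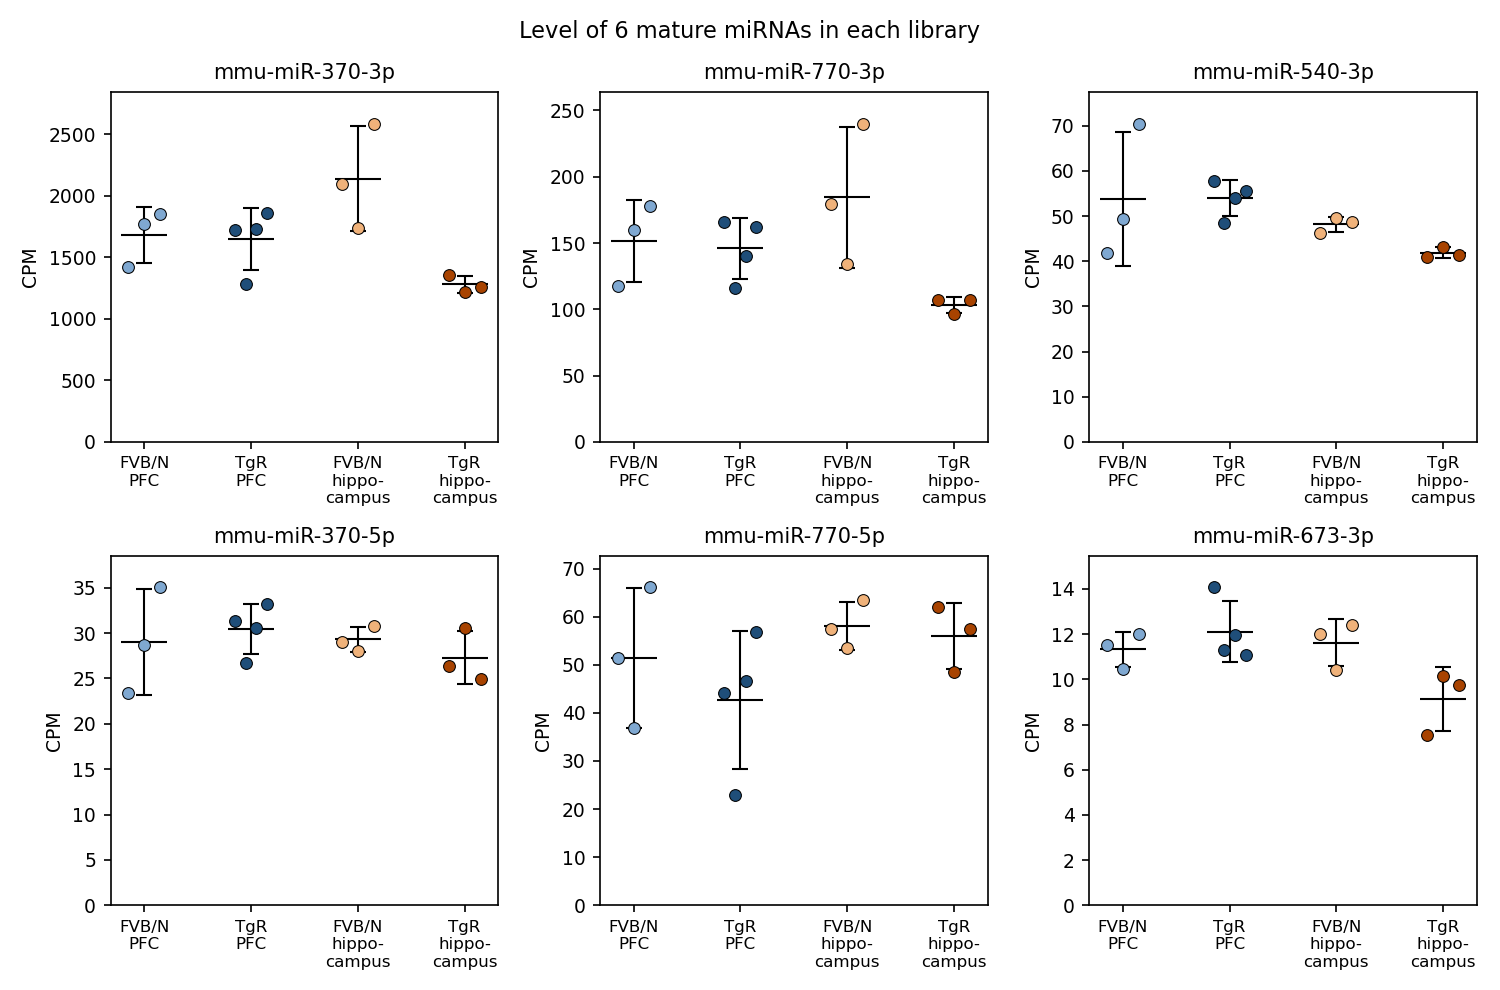
CPM (vertical axis, from 0) of 6 mature miRNAs in each of the 13 libraries (points), with the group mean (long bar) and SD (whiskers) for 3 to 4 libraries a group. The TgR hippocampi are low for mmu-miR-370-3p (1220 to 1360 CPM) and mmu-miR-770-3p (96.1 to 107 CPM), while the 5p arms of the same hairpins overlap between groups.

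Marker miRNAs of other cells were summed in each library to describe what the dissections held. The neuronal list (12 hairpins of mir-124, mir-9, mir-128, mir-138 and mir-129, all listed) summed to 390379 to 532172 CPM in every library, led by mmu-miR-128-3p. In the hippocampus the neuronal sums of both genotypes overlapped, at 409536 to 449733 CPM in FVB/N and 390379 to 448429 CPM in TgR mice. The choroid plexus list (5 hairpins, all listed, none of 9 pairs at 0) summed to 1272, 897 and 927 CPM in FVB/N and to 5494, 1302 and 4425 CPM in TgR hippocampi, and its most abundant miRNA was mmu-miR-204-5p, with a mean of 2408 CPM in TgR hippocampi. In TgR replicate 2, where this sum was the lowest of the TgR hippocampi and still above all FVB/N hippocampi, mmu-miR-370-3p was at 1220 CPM, its lowest value over the 13 libraries, and mmu-miR-770-3p at 96.1 CPM, likewise its lowest.

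The ciliated cell list (5 hairpins, all listed, led by mmu-miR-34c-5p, with mmu-miR-449b at 0 in the TgR hippocampi) summed to 146, 167 and 88.0 CPM in FVB/N and to 916, 432 and 867 CPM in TgR hippocampi. The red blood cell list (4 hairpins, all listed, led by mmu-miR-451a, none of 7 pairs at 0) went the other way, with 1383, 1407 and 1432 CPM in FVB/N and 631, 783 and 878 CPM in TgR hippocampi. The part of choroid plexus, ciliated cells and blood in the values of the members was not tested. In the hippocampus the oligodendrocyte list (mir-219a and mir-338) summed to 1395 to 2119 CPM in FVB/N and 1939 to 3102 CPM in TgR mice, the white blood cell list to 380 to 426 and 440 to 469 CPM, and the vessel list to 12404 to 17659 and 11113 to 13062 CPM. The choroid plexus, ciliated cell, red blood cell and white blood cell sums did not overlap between the genotypes, and the part of white blood cells was not tested either.

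**Figure D3:**
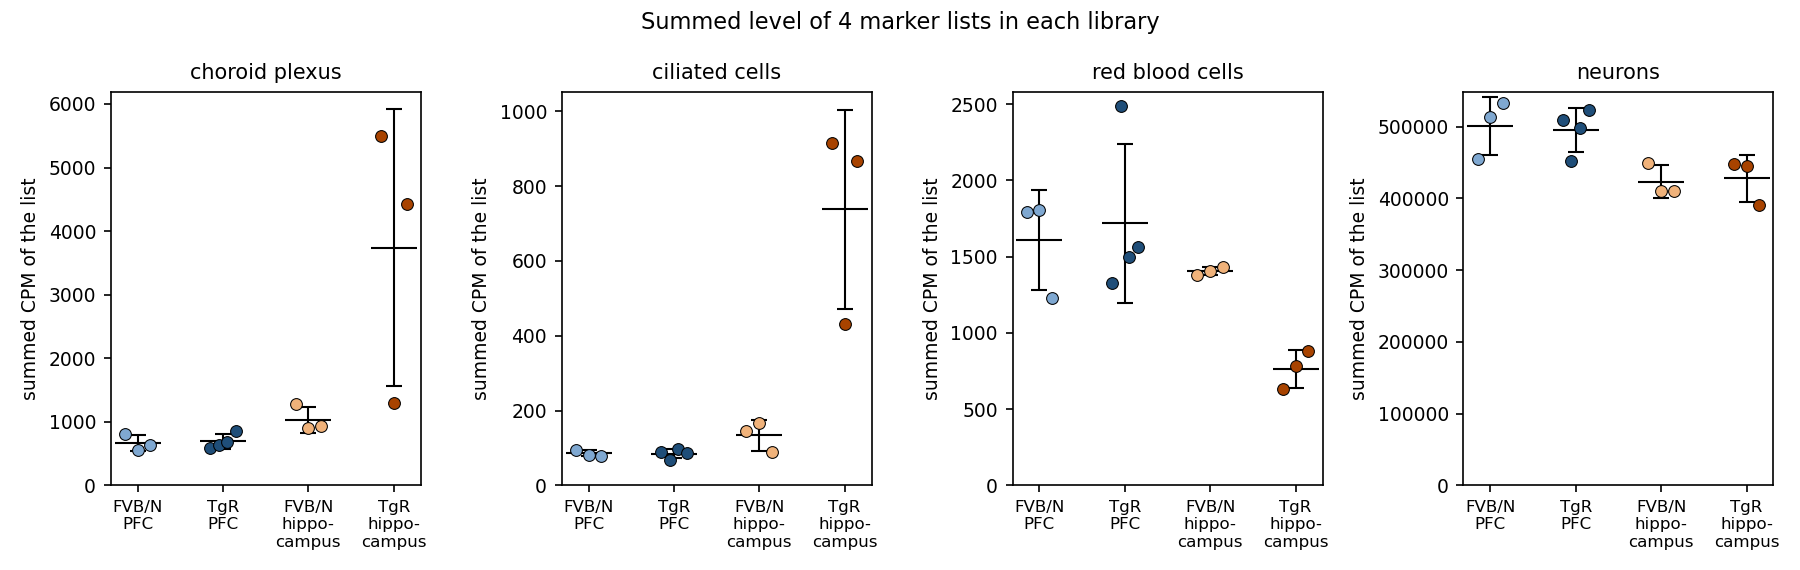
Summed CPM (vertical axis, from 0) of 4 marker lists in each of the 13 libraries (points), with the group mean (long bar) and SD (whiskers). The choroid plexus sum is highest in TgR hippocampus replicates 1 and 3 and lower in replicate 2 (1302 CPM), which is above all FVB/N hippocampi (897 to 1272 CPM), the ciliated cell sum is high in all 3 TgR hippocampi (432 to 916 CPM), and the red blood cell sum is low in them (631 to 878 CPM).

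The same question was asked in the PFC, with 4 TgR and 3 FVB/N libraries. mmu-miR-370-3p was at 1420, 1770 and 1851 CPM in FVB/N and at 1726, 1284, 1728 and 1864 CPM in TgR mice. The groups overlapped, with means of 1681 ± 229 CPM (SD, n = 3) and 1650.4 ± 253 CPM (SD, n = 4). The log2 fold change was -0.0030 (SE 0.17, edgeR adjusted p = 1.00), and with each library left out it lay between -0.12 (without FVB/N replicate 1) and 0.11 (without TgR replicate 2), and was also positive without FVB/N replicate 2 or 3. mmu-miR-770-3p was at 117, 160 and 178 CPM in FVB/N and at 166, 116, 140 and 162 CPM in TgR PFC, with a log2 fold change of -0.032 (SE 0.20, edgeR adjusted p = 1.00). Its other arm, mmu-miR-770-5p, was at 51.3, 36.9 and 66.1 CPM in FVB/N and at 44.2, 23.0, 46.7 and 56.9 CPM in TgR PFC, with a log2 fold change of -0.24 (SE 0.32, edgeR adjusted p = 1.00). mmu-miR-370-5p ranged from 23.4 to 35.05 CPM in FVB/N and from 26.7 to 33.2 CPM in TgR PFC, with a log2 fold change of 0.092 (SE 0.19, edgeR adjusted p = 1.00). The last 3 values turned as well, that of mmu-miR-770-3p to 0.0037, 0.11 and 0.068 without FVB/N PFC replicate 2, FVB/N PFC replicate 3 and TgR PFC replicate 2, that of mmu-miR-770-5p to 0.0025 without FVB/N PFC replicate 3, and that of mmu-miR-370-5p to -0.053 without FVB/N PFC replicate 1.

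By edgeR 0 of 16 members were called in the PFC, 0 had an unadjusted p under 0.05 and 0 were called by DESeq2, against 0.137% of 730 pairs called in either direction, 19 with an unadjusted p under 0.05 and 1 called by DESeq2. The share called by edgeR is a single pair, mmu-miR-383-5p, named after its values were seen. In none of the 16 members did the genotypes stay apart, against 5.07% of all pairs. The log2 fold changes of the members lay between -0.24 and 0.16, with a median of 0.039 against 0.0015 for all pairs. The members' median was -0.037 without FVB/N PFC replicate 1 and 0.10 without FVB/N PFC replicate 3. Over all tested pairs the spread between mice was wider here, with a biological coefficient of variation of 26.4% against 18.9% in the hippocampus. This did not hold for each member. The SE was 0.17 in both regions for mmu-miR-370-3p, and 0.20 here and 0.22 in hippocampus for mmu-miR-770-3p. It was 0.19 here and 0.16 in hippocampus for mmu-miR-370-5p, and 0.32 and 0.17 for mmu-miR-770-5p. In TgR replicate 2, the library with the fewest counts, mmu-miR-370-3p, mmu-miR-770-3p and mmu-miR-770-5p were each at the lowest value of the TgR PFC, the neuronal sum was also lowest there (451681 CPM) and the red blood cell sum highest (2488 CPM), and the part of these in the members' values was not tested.

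Whether the genotype effect differed between regions was tested over all 13 libraries as the hippocampal minus the PFC effect. This test takes the libraries of both regions as separate mice, which the labels do not settle. For mmu-miR-370-3p this difference was -0.83 on the log2 scale (SE 0.28, edgeR adjusted p = 0.219), and over 19 alternatives it lay between -0.97 and -0.63 with an adjusted p from 0.104 to 0.570. For mmu-miR-770-3p it was -0.90 (SE 0.34, edgeR adjusted p = 0.361). The call of mmu-miR-370-3p in the hippocampus and its absence in the PFC therefore do not establish that the regions differ. For mmu-miR-540-3p the difference was -0.30 (SE 0.28, edgeR adjusted p = 0.924), for mmu-miR-370-5p -0.28 (SE 0.28, edgeR adjusted p = 0.924) and for mmu-miR-770-5p 0.096 (SE 0.41, edgeR adjusted p = 0.976). Without FVB/N PFC replicate 1 those of mmu-miR-540-3p and mmu-miR-370-5p were -0.090 and -0.077, and without FVB/N PFC replicate 3 they were -0.54 and -0.42, while that of mmu-miR-770-5p ran from -0.13 (without TgR PFC replicate 2) and -0.11 (without FVB/N PFC replicate 3) to 0.33 (without FVB/N PFC replicate 2). By edgeR 0 of 16 members passed, 2 had an unadjusted p under 0.05 and DESeq2 called 0, against 0.533% of 751 pairs called by edgeR, 61 with an unadjusted p under 0.05 and 23 called by DESeq2. The members had a median of -0.29 and all pairs of 0.0081, and 13 of 16 members were negative, a number that was 10 with library size as the only scaling, which raised the median of all pairs by 0.15. Without FVB/N PFC replicate 1 the members' median was -0.095, and without FVB/N PFC replicate 3 it was -0.38.

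The regions were then compared within each genotype, again with the libraries taken as separate mice. In FVB/N mice, mmu-miR-370-3p was at 2101, 1738 and 2587 CPM in hippocampus and 1420, 1770 and 1851 CPM in PFC. The regions overlapped, and the log2 fold change of hippocampus against PFC was 0.33 (SE 0.21, edgeR adjusted p = 0.503), or 0.14 without FVB/N hippocampus replicate 3 and 0.21 without FVB/N PFC replicate 1. For mmu-miR-770-3p it was 0.27 (SE 0.27, edgeR adjusted p = 0.708), for mmu-miR-370-5p -0.0084 (SE 0.24, edgeR adjusted p = 0.989), for mmu-miR-770-5p 0.16 (SE 0.26, edgeR adjusted p = 0.854) and for mmu-miR-540-3p -0.18 (SE 0.25, edgeR adjusted p = 0.801). These 4 turned when a library was left out, to -0.011 for mmu-miR-770-3p without FVB/N hippocampus replicate 3, to -0.037 for mmu-miR-770-5p without FVB/N PFC replicate 2, and to 0.20 for mmu-miR-370-5p and 0.11 for mmu-miR-540-3p without FVB/N PFC replicate 3. For mmu-miR-370-5p the value was also positive without FVB/N hippocampus replicate 1 or 2. By edgeR 0 of 16 members were called in FVB/N mice, 0 had an unadjusted p under 0.05 and 0 were called by DESeq2, against 3.34% of 718 pairs in either direction, 109 with an unadjusted p under 0.05 and 36 called by DESeq2. The libraries of the regions overlapped for all 16 members, while they stayed apart for 21.6% of all pairs. The members' median was 0.053 and that of all pairs -0.0034. The members' median turned to -0.060 without FVB/N PFC replicate 1, was also below 0 with DESeq2, and reached 0.25 without FVB/N PFC replicate 3. The lowest value of a member was that of mmu-miR-337-3p, at -0.88 (SE 0.41, edgeR adjusted p = 0.336).

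In TgR mice mmu-miR-770-3p and mmu-miR-540-3p were called lower in hippocampus than in PFC. The genotype effect compared between regions above is the same contrast as the region effect compared between genotypes. Its edgeR adjusted p was 0.361 for mmu-miR-770-3p and 0.924 for mmu-miR-540-3p. The calls in TgR mice and their absence in FVB/N mice therefore do not establish that the genotypes differ. mmu-miR-770-3p was at 107, 96.1 and 107 CPM in hippocampus and at 166, 116, 140 and 162 CPM in PFC, and no hippocampus reached the lowest PFC library. It fell by 0.62 on the log2 scale (SE 0.16, edgeR adjusted p = 0.0386 over 738 pairs), from 146 ± 22.9 CPM (SD, n = 4) to 103 ± 6.24 CPM (SD, n = 3). mmu-miR-540-3p was at 40.9, 43.2 and 41.5 CPM in hippocampus and at 57.8, 48.5, 54.0 and 55.5 CPM in PFC. The regions stayed apart here too, and mmu-miR-540-3p fell by 0.48 on the log2 scale (SE 0.13, edgeR adjusted p = 0.0420). mmu-miR-370-3p overlapped through TgR PFC replicate 2 (1284 CPM), with a log2 fold change of -0.49 (SE 0.15, edgeR adjusted p = 0.0692), and was past the threshold by DESeq2 (adjusted p = 0.0252) and with the size factors of DESeq2 in edgeR (0.0452). mmu-miR-673-3p was lower in every hippocampus (7.53 to 10.1 CPM) than in any PFC library (11.1 to 14.1 CPM), with a log2 fold change of -0.52 (SE 0.19, edgeR adjusted p = 0.112, and 0.0414 by DESeq2). mmu-miR-370-5p had a log2 fold change of -0.28 (SE 0.15, edgeR adjusted p = 0.306), and mmu-miR-770-5p of 0.26 (SE 0.28, edgeR adjusted p = 0.645), the 1 positive value among the 16, which was 0.016 without TgR PFC replicate 2 and 0.42 without TgR PFC replicate 4.

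Between the regions of TgR mice 2 of 16 members were called lower in hippocampus and none higher, against 5.69% of all pairs called lower. In either direction 83 of the 738 pairs were called. Before adjustment 4 members and 178 of 738 pairs had a p under 0.05 in either direction, and DESeq2 called 4 members and 121 pairs. All libraries of the hippocampus lay below those of the PFC for 3 members, against 9.08% of all pairs. The members' median was -0.28, that of all pairs 0.029, and 15 of 16 members and 350 of 738 pairs were negative. With library size as the only scaling the median of all pairs was higher by 0.10 and 13 members were negative, and with no filter it was higher by 0.12 and 12 were. Both calls depended on the libraries and on the processing. They were lost with no filter (edgeR adjusted p = 0.0671 for mmu-miR-770-3p and 0.175 for mmu-miR-540-3p) and with all 13 libraries in one fit (0.119 and 0.128), and that of mmu-miR-540-3p also with library size only (0.0529). Without TgR PFC replicate 2 both were past the threshold (edgeR adjusted p = 0.00344 and 0.00987), as were mmu-miR-370-3p, mmu-miR-337-5p and mmu-miR-341-5p, the last 2 named after their values were seen, whereas leaving out any of the other 6 libraries left 0 members called. For mmu-miR-770-3p the adjusted p was then 0.104, 0.0971 and 0.0795 without TgR PFC replicates 1, 3 and 4, and 0.101, 0.131 and 0.117 without TgR hippocampus replicates 1, 2 and 3. For mmu-miR-540-3p it was 0.118, 0.129 and 0.0806, and 0.123, 0.101 and 0.136, in the same order. The adjusted p ran from 0.00344 to 0.131 for mmu-miR-770-3p and from 0.000944 to 0.175 for mmu-miR-540-3p over 14 alternatives, while the log2 fold changes lay between -0.76 and -0.50 and between -0.58 and -0.37. The comparison shares the 3 TgR hippocampi with that of the genotypes in hippocampus, so both read the same low libraries. The TgR regions also differed in all 7 marker sums, none of which overlapped. The PFC had 595 to 855 CPM of the choroid plexus list, 67.0 to 96.3 CPM of the ciliated cell list and 613 to 742 CPM of the oligodendrocyte list, all below the hippocampal sums given above. It had 451681 to 522798 CPM of the neuronal list, 1329.6 to 2488 CPM of the red blood cell list, 485 to 643 CPM of the white blood cell list and 14418 to 15949 CPM of the vessel list, all above them. The part of these cells in the members' values was not tested.

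**Figure D4:**
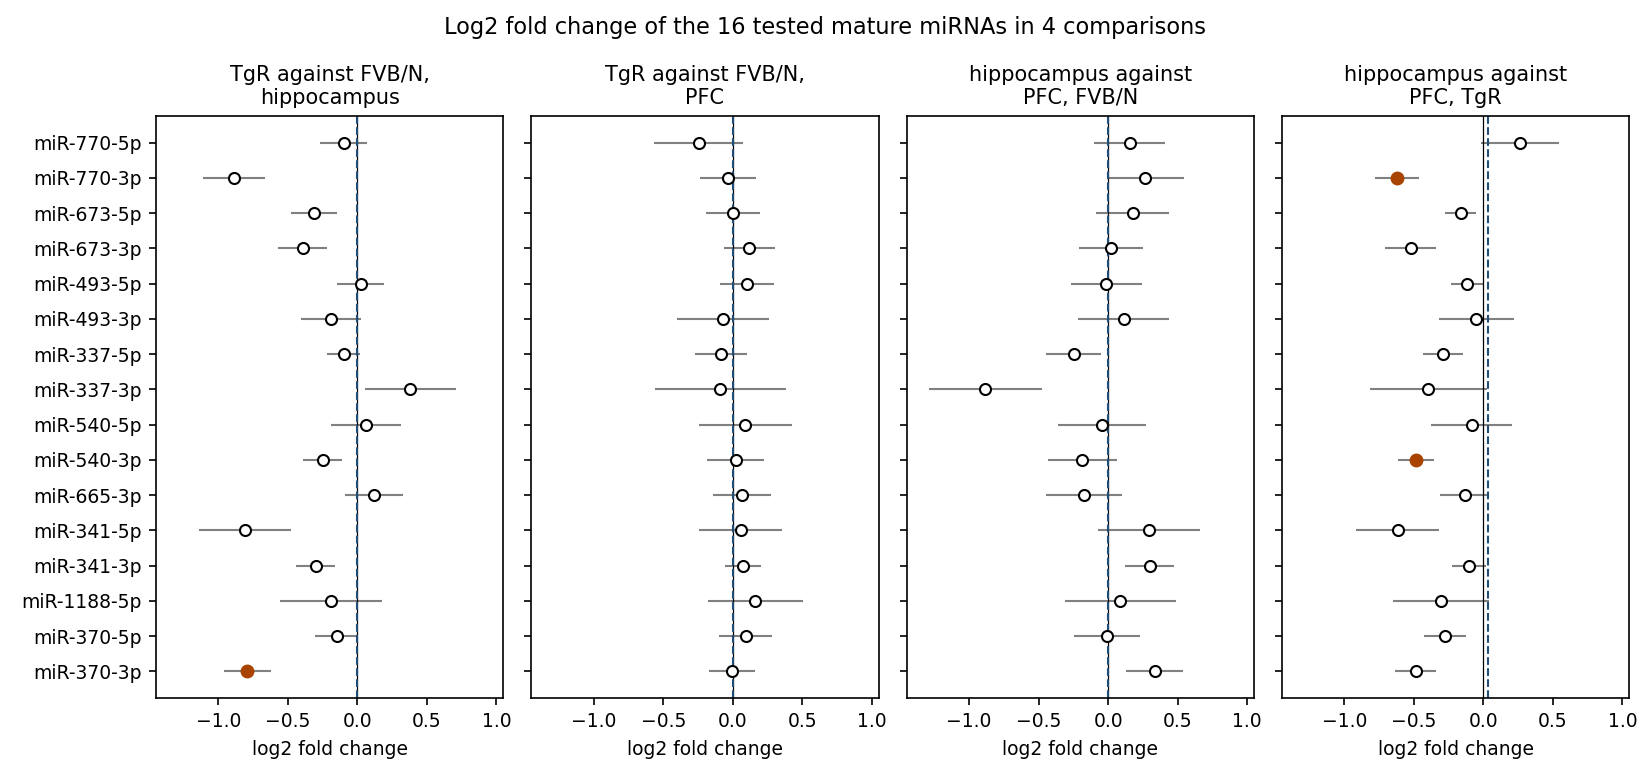
Log2 fold change (horizontal axis) with its standard error (whiskers) for the 16 tested mature miRNAs in 4 comparisons. Filled points passed an adjusted p of 0.05 in edgeR, and the dashed line is the median of all tested pairs. In the hippocampus mmu-miR-370-3p is filled at -0.79, in the PFC the members lie between -0.24 and 0.16, and between the regions of TgR mice mmu-miR-770-3p and mmu-miR-540-3p are filled.

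Since the arms of mmu-mir-370 and mmu-mir-770 had different values, the ratio of 3p to 5p counts was compared within hairpins, a measure that no scaling between libraries can change. In 6 member hairpins both arms had at least 10 counts in every library. The 3p arm dominated in mmu-mir-370, with 97.6% to 98.8% of the hairpin's counts, and less so in mmu-mir-540 and mmu-mir-770. The 5p arm dominated in mmu-mir-673, mmu-mir-493 and mmu-mir-337, in which the 3p arm had group means of 19.2% to 23.4%, 5.14% to 6.35% and 0.321% to 0.571%. mmu-mir-770 had 75.8%, 71.5% and 79.1% of its counts on the 3p arm in FVB/N hippocampi and 63.3%, 66.5% and 65.1% in TgR hippocampi. The PFC values were 69.6%, 81.2% and 72.9% in FVB/N and 78.9%, 83.5%, 75.0% and 74.0% in TgR mice, so the 3 TgR hippocampi were below all other 10 libraries. This separation was seen in the values and was not tested by itself. How many other hairpins show the same separation was not counted, so it is not shown to be particular to mmu-mir-770.

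Each ratio was tested by an exact two-sided permutation test over 700 assignments of genotype within region, or of region within genotype, which takes the libraries of both regions as separate mice, with adjustment over the 432 tests of all 216 hairpins that met the minimum. For mmu-mir-370 the log2 ratio of 3p to 5p was 6.17 ± 0.22 in FVB/N and 5.56 ± 0.21 in TgR hippocampi (SD, n = 3 each), and 5.87 ± 0.12 (SD, n = 3) and 5.75 ± 0.11 (SD, n = 4) in PFC. The mean difference between genotypes was -0.37 (exact p = 0.0129, adjusted p = 0.198), with -0.62 in hippocampus and -0.12 in PFC, and did not pass. For mmu-mir-770 the mean difference between regions was -0.45 (exact p = 0.0929, adjusted p = 0.456), made of 0.054 in FVB/N and -0.95 in TgR mice, and that between genotypes -0.24 (exact p = 0.333, adjusted p = 0.760), made of -0.74 in hippocampus and 0.26 in PFC. The strata of mmu-mir-770 differed in sign. With single libraries left out, its difference between genotypes ran from -0.34 (without FVB/N PFC replicate 1) to -0.11 (without FVB/N PFC replicate 2). A test within the hippocampus alone, with 3 libraries against 3, was not run because it cannot go below 0.1. After adjustment 0 of 6 member hairpins passed in either test, as did 0.0% of all hairpins for genotypes and 0.0% for regions. The design limits this outcome, since the smallest p that the assignments allow is 0.00143 and at least 13 of the 432 tests would have to pass together for any to pass. That smallest p was reached by 7 tests, and nothing is read from these counts of 0. At an unadjusted exact p under 0.05 there was 1 member for genotypes, against 11.1% of all hairpins, and 0 for regions, against 16.7%.

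**Figure D5:**
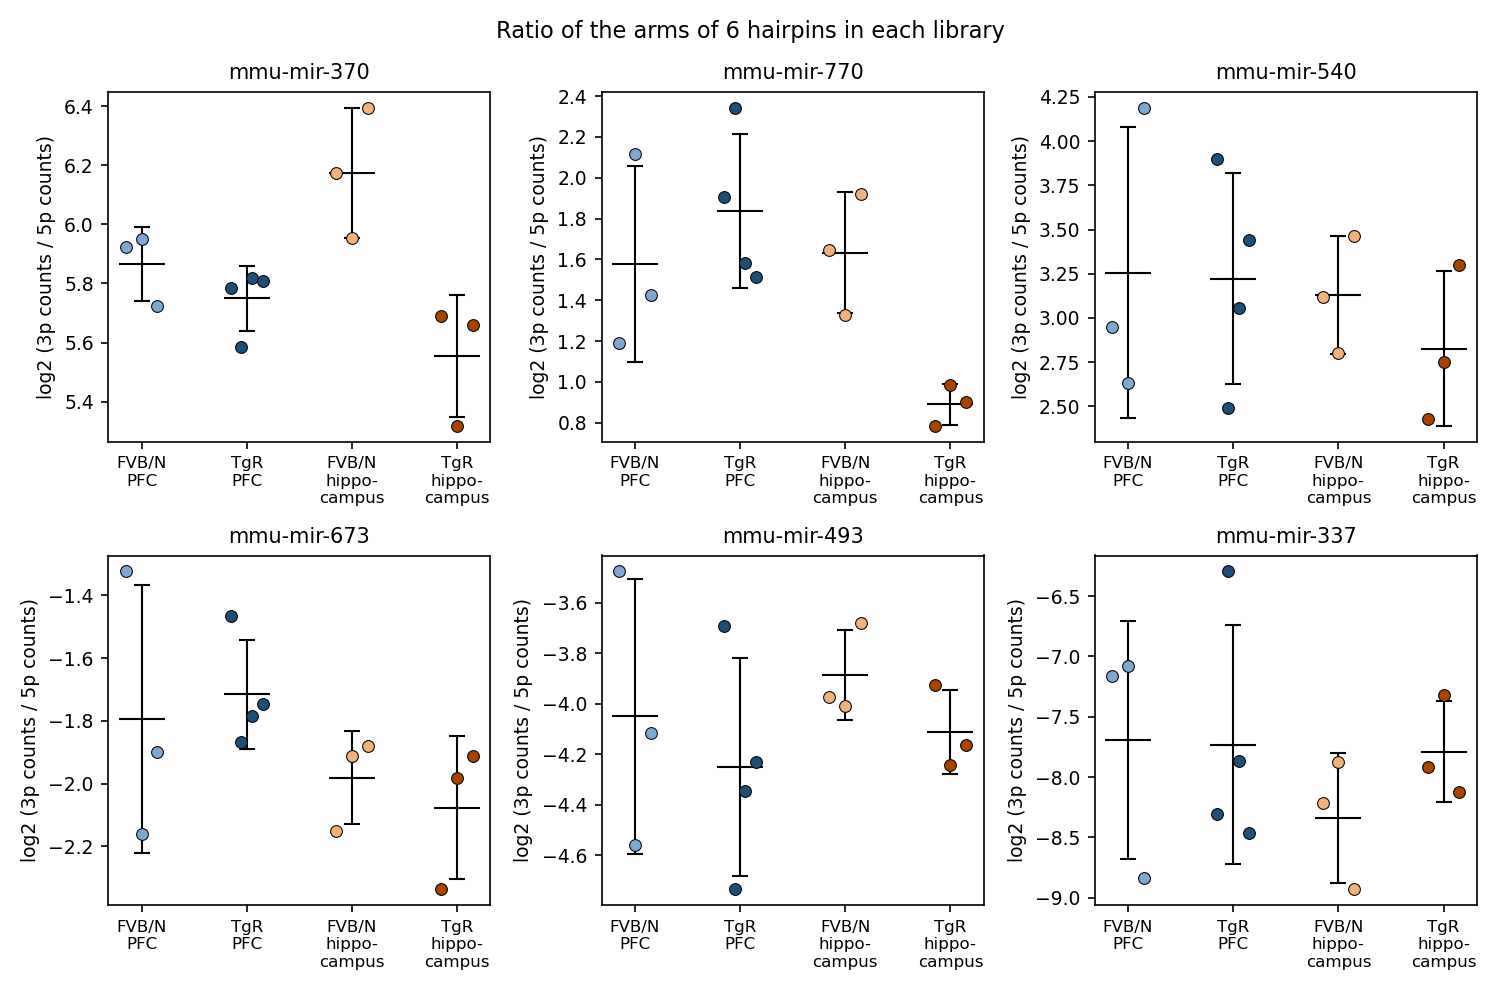
Log2 ratio of 3p to 5p counts (vertical axis, not from 0) of 6 hairpins in each of the 13 libraries (points), with the group mean (long bar) and SD (whiskers). In mmu-mir-770 the 3 TgR hippocampi are below all other libraries, and in mmu-mir-370 they are below the FVB/N hippocampi. Such separations were not counted over all hairpins.

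Other hairpins of the domain were read from lists of the group antisense to Rtl1 and of the distal cluster from mir-379 to mir-410. In the TgR against the FVB/N hippocampus 0 of 10 tested pairs antisense to Rtl1 were called by edgeR, with a median log2 fold change of -0.15. The distal cluster had 1 of 65 pairs called lower, mmu-miR-412-5p (-0.73), against 1.52% of all 726 pairs called lower and 25 called in either direction. Its median was -0.13. At an unadjusted p under 0.05 there were 2 and 15 pairs, and DESeq2 called 1 and 8, against 127 and 56 of all 726 pairs. In the PFC the medians were 0.031 and -0.0086, with 0 called by edgeR in either list, 0 and 2 at an unadjusted p under 0.05, and 0 called by DESeq2. Between the regions of TgR mice 2 pairs antisense to Rtl1, mmu-miR-431-5p and mmu-miR-434-5p, and 4 of the distal cluster, mmu-miR-369-5p, mmu-miR-379-5p, mmu-miR-409-3p and mmu-miR-541-5p, were lower in hippocampus, against 5.69% of all pairs. None was higher, where 83 of all 738 pairs were called in either direction, and the medians of the lists were -0.080 and -0.21. Pairs with an unadjusted p under 0.05 numbered 4 and 13 in the lists and 178 of all 738, and DESeq2 called 3 and 9 and 121. Apart from mmu-miR-434-5p these were named after their values were seen. Without TgR PFC replicate 2 these counts were 3 and 11. The first was 0 without TgR PFC replicate 3 or TgR hippocampus replicate 3 and 1 without any of the other 4 libraries, and the second 2 without TgR PFC replicate 3 or any TgR hippocampus. With no filter the first was 1, with all 13 libraries in one fit it was 0, and with the size factors of DESeq2 in edgeR the second was 8. Between genotypes in hippocampus the counts of the 2 lists were 1 and 2 without FVB/N hippocampus replicate 2, and that of the distal cluster was 0 without any of the other 5 libraries, with library size only and with all 13 libraries in one fit. With no filter these counts were 1 and 4, and with all 13 libraries in one fit the first was 1. Between the regions of FVB/N mice edgeR and DESeq2 called 0 in either list, 0 and 5 pairs had an unadjusted p under 0.05 by edgeR, and the medians were 0.11 and -0.17. In the distal cluster 3 pairs were called there with no filter and 4 without FVB/N PFC replicate 3. Of the most abundant pairs, mmu-miR-434-5p had a log2 fold change of -0.75 in the hippocampus between genotypes (SE 0.19, edgeR adjusted p = 0.0668), mmu-miR-434-3p of -0.18, mmu-miR-381-3p of -0.45 and mmu-miR-300-3p of 0.027, none past the threshold.

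The pairs whose levels followed mmu-miR-370-3p most closely over the 13 libraries, among 398 pairs outside the members with a mean of at least 10 CPM, included 3 of the same domain. These were mmu-miR-434-5p (Pearson r = 0.92), mmu-miR-411-5p (0.80) and mmu-miR-666-5p (0.79). The others were mmu-miR-330-5p (0.89) and mmu-miR-148a-3p (0.87). How many of the 398 pairs belong to the domain was not counted, so the number from the domain cannot be judged. The values share libraries and scaling and span 4 groups, so they describe likeness of pattern only.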

How the data were processed

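Small RNA was sequenced from hippocampus and PFC of both genotypes. The deposited values are raw counts of reads for each hairpin and mature miRNA, not normalized, which the authors obtained by matching reads to the miRBase entries with miRExpress. DESeq2 is also named in the submitters' processing notes. Pairs with no count are not listed and were taken as 0. Groups and replicate numbers came from the sample titles (the FVB/N PFC counts carry another numbering as well), and no pair of libraries of a group agreed within sampling noise (chi-square per degree of freedom 56.7 to 594).

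Every comparison had its own fit in edgeR 4.0.16 under R 4.3.3 (TMM, filterByExpr with a minimum of 10 counts, quasi-likelihood test, Benjamini-Hochberg adjustment over all tested pairs, threshold 0.05), and the difference between regions over all 13 libraries. CPM were computed here from the deposited counts with TMM over all 13 libraries, so that the 4 groups share a scale, while fold changes come from each comparison's own fit. Alternatives were DESeq2 1.42.0, its size factors in edgeR, library size only, no filter, 1 row per mature miRNA, all 13 libraries in one fit, the replicate number as a block and each library left out. For arms they were a minimum of 50 counts, 0.5 added to counts and each library left out. Arm p-values were adjusted over all hairpins, a choice made after the files were seen. The scripts were tested on simulated counts.

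Full statistics were given for members past the threshold and for both arms of mmu-mir-370 and mmu-mir-770. Rows like mmu-miR-370-3p were ranked by Pearson r of log2 CPM with 0.5 added. The members and lists were chosen with earlier results of these data known. Reads had no molecular identifiers. Hairpin positions are those of RefSeq on GRCm38.p6 and transcripts those of GENCODE.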

Additional observations from a re-analysis of the deposited data

Results flagged for a closer look

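In the TgR PFC, the group with 4 libraries, 31 sets of values were searched for a library far from the others, and 3 had one, where chance gives about 1 in 20. mmu-miR-337-3p was at 5.06 CPM in replicate 2 and at 1.57 to 2.10 CPM in the others (gap over range 0.846). The log2 ratio of 3p to 5p of mmu-mir-370 was 5.59 in replicate 2 and 5.78 to 5.82 in the others (gap over range 0.847). The oligodendrocyte sum was 742 CPM in replicate 4 and 613 to 627 CPM in the others (gap over range 0.894).

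No member differed between regions in its genotype effect past the threshold. Outside the members 4 pairs did, named after their values were seen, with a hippocampal minus PFC effect on the log2 scale of 2.50 for mmu-miR-34b-3p, 2.71 for mmu-miR-34b-5p, 2.57 for mmu-miR-34c-3p and 2.37 for mmu-miR-34c-5p (adjusted p of 0.00512, 0.0420, 0.0318 and 0.00702, edgeR). They belong to the ciliated cell list, whose sum was higher in the TgR hippocampi, and their part in the members' values was not tested.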

How the results depend on the processing

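Over 1087 values under alternatives, 933 kept their direction and side of the threshold or stayed close, 40 changed sign (4 of them medians of the members), 25 lost and 7 gained the threshold, and 82 counts of calls moved. Only a called value can lose the threshold. The losses fell on mmu-miR-370-3p between genotypes in hippocampus (6 of 13 alternatives). Between the regions of TgR mice they fell on mmu-miR-770-3p (9 of 14) and mmu-miR-540-3p (10 of 14). Of the 933, 198 were arm ratios, whose adjusted test could hardly pass in this design and says nothing of stability. The cause was not tested, except that settings with a library left out rest on fewer samples.

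With DESeq2, calls rose to 56 between genotypes in hippocampus (2 members) and 23 for the difference between regions (8 higher, 15 lower), and 4 members were called between the regions of TgR mice. With no filter there were 63 calls (2 members) in hippocampus, 56 between the regions of FVB/N mice, 13 for the difference and 0 members between the regions of TgR mice. With library size only, 1 member was called there. The split of calls there was 41 higher and 42 lower with TMM and 68 and 37 with library size only (65 and 29 with no filter), and in hippocampus 14 and 11 against 12 and 6. With all 13 libraries in one fit, 40 pairs were called between the regions of FVB/N mice and 0 members between those of TgR mice, and mmu-miR-370-3p was at 0.027 in PFC. Between the regions of FVB/N mice mmu-miR-673-3p turned to -0.031 with DESeq2, -0.020 with its size factors and -0.012 with library size only.

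Same-numbered libraries did not deviate together in every pair (r from -0.43 to 0.59 over the comparisons, with 2 of 6, 2 of 7, 4 of 6 and 2 of 7 libraries closest to their own number), so the numbers in the titles were not taken to pair them. With the replicate number as a block, 9 pairs and 0 members were called in hippocampus (mmu-miR-370-3p at an edgeR adjusted p of 0.0803). Between the regions of TgR mice the block left 54 pairs and 0 members called, with 1 pair antisense to Rtl1 and 1 of the distal cluster. There mmu-miR-770-3p was at an edgeR adjusted p of 0.0710 and mmu-miR-540-3p at 0.116. The log2 fold change of mmu-miR-370-5p between the regions of FVB/N mice was 0.012 with the block.

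Leaving out each library gave 1 (without FVB/N hippocampus replicate 3) to 28 calls and 0 to 2 members between genotypes in hippocampus, 4 (without FVB/N PFC replicate 2) to 51 (without FVB/N PFC replicate 3) between the regions of FVB/N mice, 45 to 128 (without TgR PFC replicate 2) and 0 to 5 members between those of TgR mice, and 2 to 8 for the difference. Log2 fold changes between genotypes in PFC ran from -0.038 to 0.43 for mmu-miR-1188-5p, -0.12 to 0.11 for mmu-miR-370-3p, -0.053 to 0.27 for mmu-miR-370-5p, -0.14 to 0.28 for mmu-miR-540-3p, -0.20 to 0.11 for mmu-miR-770-3p and -0.44 to 0.0025 for mmu-miR-770-5p. Between the regions of FVB/N mice they ran from -0.16 to 0.20 for mmu-miR-370-5p, -0.35 to 0.11 for mmu-miR-540-3p, -0.061 to 0.12 for mmu-miR-673-3p, -0.011 to 0.45 for mmu-miR-770-3p and -0.037 to 0.44 for mmu-miR-770-5p, and for the difference from -0.13 to 0.33 for mmu-miR-770-5p. Arm differences between genotypes ran from -0.030 to 0.41 for mmu-mir-337, -0.32 to 0.065 for mmu-mir-540 and -0.10 to 0.11 for mmu-mir-673. None of these named values passed the threshold. Depth limits the arms with few counts, of which mmu-miR-1188-3p and mmu-miR-665-5p did not pass the filter on low counts of the main fits.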
